A study of Arabidopsis thaliana with 15 samples.

Results

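The jasmonate synthesis genes described here are 10 Arabidopsis thaliana genes, taken by their locus codes from a table of 22526 genes. They are the lipoxygenases LOX2 (AT3G45140), LOX3 (AT1G17420) and LOX4 (AT1G72520), the allene oxide synthase AOS (AT5G42650), the allene oxide cyclases AOC1 (AT3G25760), AOC2 (AT3G25770) and AOC3 (AT3G25780), the OPDA reductase OPR3 (AT2G06050), the CoA ligase OPCL1 (AT1G20510) and the conjugating enzyme JAR1 (AT2G46370). All 10 were present and passed the filter on low values, a mean of at least 1 CPM (reads scaled for library size) over the 5 conditions.

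Transcripts were measured by strand-specific sequencing of polyadenylated RNA from whole 14-day-old wild-type seedlings of the Columbia accession (Col-0). After a day in liquid Murashige and Skoog medium with sucrose, seedlings received 20 µM abscisic acid (ABA, a hormone plants make when water is short) for 1 h or 3 h, or were laid on filter paper in the light for 1 h or 3 h (dehydration), or were harvested before either treatment (control). The ABA stock was made in methanol, and the labels name no methanol-only seedlings. The 15 libraries, 3 in each of these 5 groups, appear in the deposited tables as 1 combined column per group.

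Because replicates are combined, no value below has a spread between replicates, no test between conditions could be run and no p-value is given. Brackets hold exact 95% intervals for counting error alone, and ratios of 2-fold or more are called higher or lower. The control preceded treatment, so differences from it include elapsed time and handling, and the 4 comparisons with the control share it. The replicates of a condition were sequenced together, so condition and sequencing pool cannot be told apart. In whole seedlings, fewer cells of a type and less RNA per cell cannot be told apart either.

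Column totals lay between 163762670 and 204315702 reads. The 5 leaf and 8 root markers with a row were all detected in these whole-seedling samples. The listed leaf markers RBCS1A and LHCB1.3 had no row and could not be looked at. The 5 leaf markers summed to 12270 CPM at 1 h of ABA, 8396 at 3 h of ABA, 10219 at 1 h of dehydration, 8885 at 3 h of dehydration and 17073 in the control. The 8 root markers summed to 147 CPM at 1 h of ABA, 95.6 at 3 h of ABA, 124 at 1 h of dehydration, 100.3 at 3 h of dehydration and 172 in the control. Both sums were below the control in each treated column, and none of these markers was at 0. The 4 guard cell markers summed to between 39.0 CPM at 1 h of ABA and 70.0 CPM at 3 h of ABA, with 46.0 CPM in the control. At least 2-fold lower than the control were 0 of 5 leaf markers at 1 h of ABA, 2 at 3 h of ABA, 0 at 1 h of dehydration and 3 at 3 h of dehydration. Of 8 root markers 0 were lower at 1 h of ABA, 3 at 3 h of ABA, 2 at 1 h of dehydration and 2 at 3 h of dehydration. Among all genes that passed the filter, 5.13%, 7.79%, 5.62% and 6.49% were lower in the same order, and 4.54%, 9.12%, 7.73% and 10.5% higher. The root markers at least 2-fold higher were RHD6 at 1 h of ABA and WOX5 at both times of dehydration. The log2 ratio of WOX5 was 2.22 at 1 h and 5.46 at 3 h of dehydration, from 49 reads in the control. The lower ones were IRT1 at 3 h of ABA and 1 h of dehydration, and COBL9 at both times of dehydration. PHT1;1 was lower at 3 h of either treatment and CASP1 at 3 h of ABA. All these root markers were named after their values were seen. Of the guard cell markers, likewise named, MYB60 was at least 2-fold lower in both ABA columns and GORK at least 2-fold higher at 3 h of ABA and 3 h of dehydration. The part of tissue composition in the values below was not tested.

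Jasmonates are lipid-derived hormones best known from wounding, insect attack and stamen development. In the plastid, lipoxygenases oxygenate linolenic acid, AOS turns the hydroperoxide into an unstable allene oxide, and the cyclases close it into oxo-phytodienoic acid (OPDA). OPDA moves to the peroxisome, where OPR3 reduces it, OPCL1 activates the product as a CoA ester and beta-oxidation shortens it to jasmonic acid. JAR1 then joins jasmonic acid to isoleucine, the form that the COI1 receptor binds together with JAZ repressors.

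Sequences of AOC1, AOC2 and AOC3 are shown first because these genes are neighbours and close copies, so their separate values depend on reads being told apart. In the RefSeq annotation of TAIR10.1, where all 10 genes were found by locus code, the 3 cyclases follow each other on chromosome 3 in the same orientation, with gaps of 1330 bp between AOC1 and AOC2 and 1088 bp between AOC2 and AOC3 and no gene in between. Their coding sequences were 90.3% identical between AOC1 and AOC2, 81.8% between AOC1 and AOC3 and 82.0% between AOC2 and AOC3. A stretch of 30 coding bases differs at 17 alignment columns among the 3, shown in capitals, with the same columns in capitals for the unlinked AOC4 (AT1G13280):
AOC1: CccAAAAAttcttaaaAAcgCATTCaGCTT
AOC2: CccCAAGAttcttaaaAAcgCATTCaGCTT
AOC3: TccAGCAGttcttaaaCTcgGCAAGaAACC
AOC4: TccAGCGGttttaaaaCTagGGAAAaAACC

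The stretch runs from coding base 291 to 320 in AOC1, 288 to 317 in AOC2, 300 to 329 in AOC3 and 288 to 317 in AOC4. Most of its capital columns set AOC3 apart from AOC1 and AOC2. Between AOC1 and AOC2, the closest pair, the stretch is nearly the same, so it does little to tell these genes apart. Over whole transcripts, no 100-base window of any of the 10 genes, the length of the reads, occurred exactly in another gene's transcript. The closest windows between AOC1, AOC2 or AOC3 and another cyclase still differed at 3 bases, those between LOX3 and LOX4 at 8, those of LOX2 against the other family members at 22 and those of OPR3 against OPR1 and OPR2 at 25. None of the 10 genes overlapped another annotated gene on either strand.

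After dehydration the whole set stood above the control. At 1 h, 8 of 10 were higher by 2-fold or more and 0 lower, where 7.73% of all measured genes were higher and 5.62% lower. At 3 h, 10 of 10 were at least 2-fold higher, where 10.5% of all measured genes were higher and 6.49% lower. The median log2 ratio of the 10 at 1 h was 1.77, beside −0.01 over all measured genes, and at 3 h it was 2.30, beside −0.02.

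After ABA most of the set lay within 2-fold of the control. At 1 h only JAR1 was at least 2-fold higher and 0 of 10 were lower, where 4.54% of all measured genes were higher and 5.13% lower. At 3 h LOX3 and AOC2 were at least 2-fold higher and 0 were lower, where 9.12% of all measured genes were higher and 7.79% lower. The median of the 10 at 1 h was 0.31, beside 0.02 over all measured genes, and at 3 h it was 0.05, beside 0.01. The ratios of single genes lay between −0.67 and 1.02 at 1 h and between −0.62 and 1.60 at 3 h, so the set did not stand on one side of the control.

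**Figure D1:**
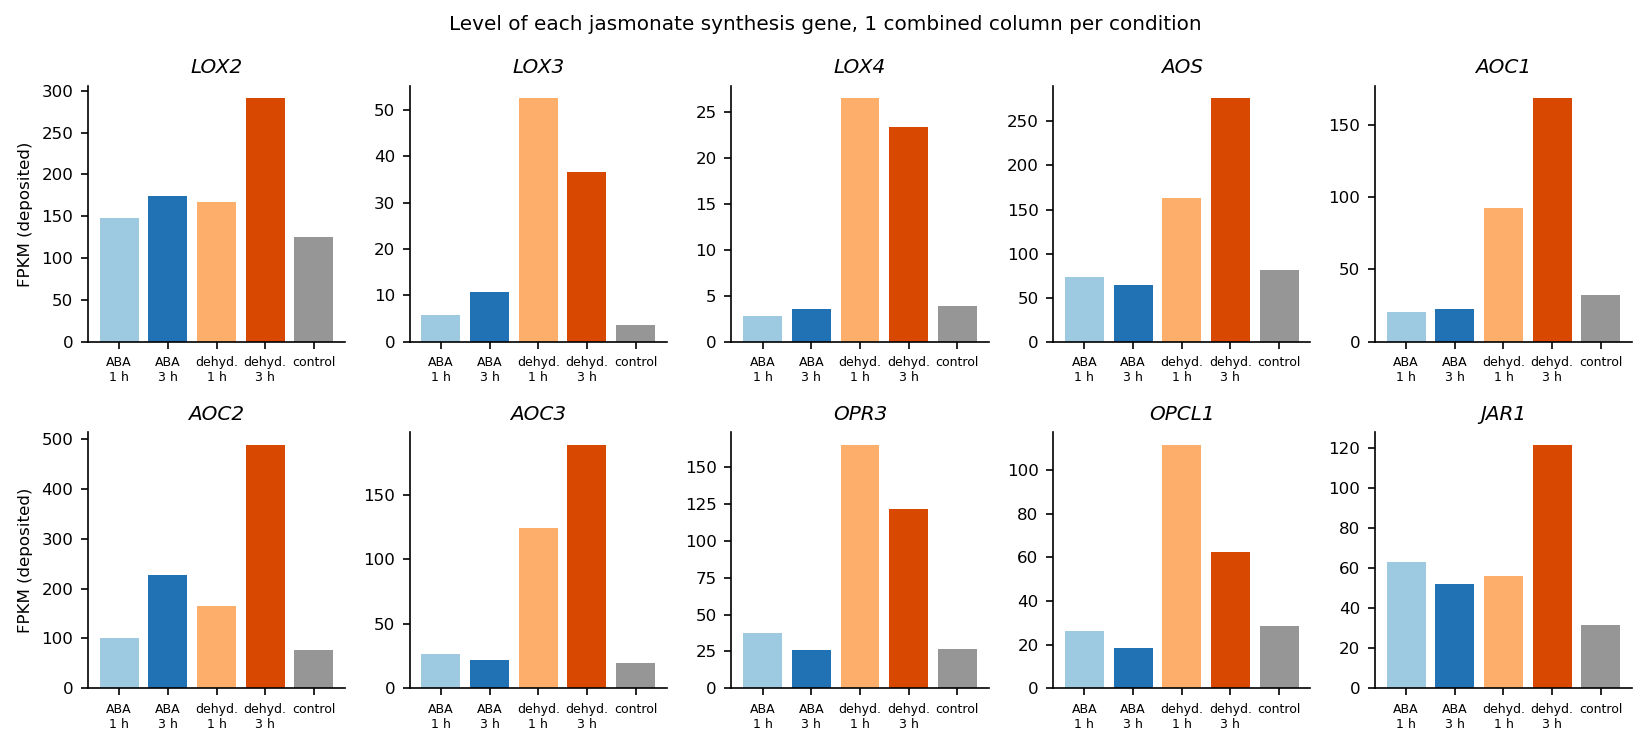
Deposited FPKM (vertical axis, linear, own scale for each gene) of the 10 jasmonate synthesis genes under ABA (1 h, then 3 h), under dehydration (1 h, then 3 h) and in the control; each bar is 1 combined column, with no error bar because replicates are combined. Both dehydration bars stand above both ABA bars in 7 of the 10 panels, and in those of LOX2, AOC2 and JAR1 an ABA bar exceeds the dehydration 1 h bar.

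The lipoxygenases open the pathway. LOX2, the main leaf lipoxygenase of wound-induced jasmonate, had 148 FPKM at 1 h of ABA, 174 at 3 h of ABA, 167 at 1 h of dehydration, 291 at 3 h of dehydration and 126 in the control. The dehydration 3 h column thus stood apart, and the other treated columns lay close together above the control. Against the control the log2 ratio was 1.19 (1.18 to 1.21) at 3 h of dehydration and 0.46 (0.44 to 0.47) at 1 h of dehydration. LOX2 had the lowest dehydration 1 h ratio of the 10 genes.

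LOX3, a lipoxygenase needed together with LOX4 for stamen development, was at 5.83 FPKM at 1 h of ABA, 10.8 at 3 h of ABA, 52.5 at 1 h of dehydration, 36.6 at 3 h of dehydration and 3.55 in the control. All treated columns were above the control, and dehydration 1 h was the highest. Its ratio of 15.2-fold at 1 h of dehydration, a log2 ratio of 3.93 (3.86 to 4.0), was the largest of any of the 10 genes in any comparison with the control. At 3 h of dehydration the log2 ratio was 3.36 (3.29 to 3.43), and at 3 h of ABA it was 1.60 (1.53 to 1.68).

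LOX4 had 2.76 FPKM at 1 h of ABA, 3.60 at 3 h of ABA, 26.5 at 1 h of dehydration, 23.4 at 3 h of dehydration and 3.85 in the control. Both ABA columns lay slightly below the control and both dehydration columns far above it. Its log2 ratio was 2.83 (2.76 to 2.89) at 1 h of dehydration and 2.60 (2.53 to 2.67) at 3 h of dehydration. After ABA it was −0.48 (−0.57 to −0.38) at 1 h and −0.10 (−0.18 to −0.01) at 3 h.

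AOS, the single-copy enzyme that commits the hydroperoxide to jasmonates, was at 73.5 FPKM at 1 h of ABA, 64.8 at 3 h of ABA, 163 at 1 h of dehydration, 276 at 3 h of dehydration and 81.0 in the control. Dehydration 3 h was highest and both ABA columns were under the control. The log2 ratio was 1.05 (1.03 to 1.07) at 1 h of dehydration, which lay just below the 2-fold limit with 1 added to FPKM, and 1.77 (1.75 to 1.79) at 3 h of dehydration.

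Of the cyclases, AOC1 had 20.3 FPKM at 1 h of ABA, 22.8 at 3 h of ABA, 92.3 at 1 h of dehydration, 168 at 3 h of dehydration and 32.2 in the control. Its ABA 1 h column lay furthest below the control of the 10 genes, with a log2 ratio of −0.67 (−0.74 to −0.60). After dehydration its log2 ratio was 1.56 (1.51 to 1.61) at 1 h and 2.38 (2.33 to 2.42) at 3 h.

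AOC2 was at 99.8 FPKM at 1 h of ABA, 227 at 3 h of ABA, 164 at 1 h of dehydration, 488 at 3 h of dehydration and 76.3 in the control. Here the later column of each treatment exceeded the earlier one, and ABA 3 h exceeded dehydration 1 h. The log2 ratio was 1.58 (1.55 to 1.61) at 3 h of ABA, 1.14 (1.11 to 1.17) at 1 h of dehydration and 2.68 (2.65 to 2.71) at 3 h of dehydration.

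AOC3 had 26.6 FPKM at 1 h of ABA, 21.6 at 3 h of ABA, 124 at 1 h of dehydration, 189 at 3 h of dehydration and 19.8 in the control. Its ABA columns stayed near the control and its dehydration columns did not. The log2 ratio was 2.68 (2.63 to 2.74) at 1 h of dehydration and 3.26 (3.21 to 3.32) at 3 h of dehydration, against 0.45 (0.37 to 0.52) at 1 h of ABA and 0.14 (0.07 to 0.21) at 3 h of ABA.

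OPR3, the peroxisomal reductase, was at 37.4 FPKM at 1 h of ABA, 26.0 at 3 h of ABA, 165 at 1 h of dehydration, 122 at 3 h of dehydration and 26.3 in the control. The ABA 3 h column and the control were nearly equal, with a log2 ratio of −0.04 (−0.09 to 0.02). After dehydration the log2 ratio was 2.68 (2.64 to 2.72) at 1 h and 2.22 (2.18 to 2.26) at 3 h.

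OPCL1, which activates the reduced product for beta-oxidation, had 26.4 FPKM at 1 h of ABA, 18.5 at 3 h of ABA, 112 at 1 h of dehydration, 62.5 at 3 h of dehydration and 28.6 in the control. Dehydration 1 h was its highest column and ABA 3 h its lowest. Its log2 ratio was 1.98 (1.95 to 2.02) at 1 h of dehydration, 1.15 (1.11 to 1.18) at 3 h of dehydration and −0.62 (−0.67 to −0.57) at 3 h of ABA.

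JAR1, the last step to the active hormone, was at 63.3 FPKM at 1 h of ABA, 52.2 at 3 h of ABA, 56.3 at 1 h of dehydration, 122 at 3 h of dehydration and 31.5 in the control. Its dehydration 1 h column lay between its ABA columns, as in AOC2. The log2 ratio was 1.02 (0.98 to 1.05) at 1 h of ABA, an interval that spans the 2-fold limit (with 1 added to FPKM it lay below the limit), 0.72 (0.68 to 0.75) at 3 h of ABA, 0.86 (0.83 to 0.89) at 1 h of dehydration and 1.96 (1.93 to 1.99) at 3 h of dehydration.

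**Figure D2:**
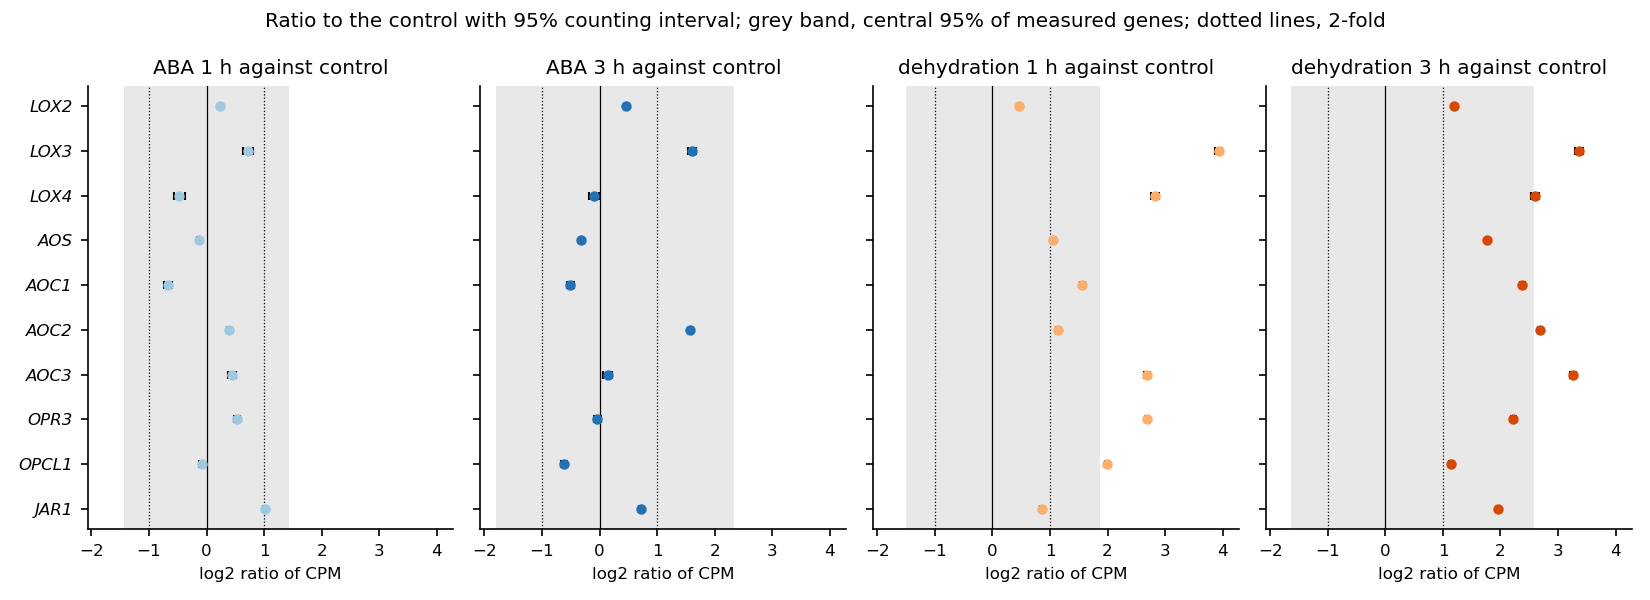
Log2 ratio of scaled CPM to the control (horizontal axis) for the 10 genes, 1 panel per treated column; bars are 95% counting intervals, often smaller than the point, the grey band holds the central 95% of measured genes and dotted lines mark 2-fold. No gene lies above the band after ABA, while 5 do at 1 h of dehydration and 4 at 3 h of dehydration.

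Set directly against ABA at the same time, dehydration gave the higher level for nearly the whole set. At 1 h, 7 of 10 genes were at least 2-fold higher after dehydration than after ABA and 0 lower, where 5.4% of all measured genes were higher and 3.5% lower. The 3 within 2-fold were LOX2 at a log2 ratio of 0.23, AOC2 at 0.75 and JAR1 at −0.16. At 3 h, 9 of 10 were at least 2-fold higher and 0 lower, where 9.15% of all measured genes were higher and 6.82% lower, and LOX2 at 0.74 was the exception. The median of the 10 was 2.11 at 1 h, beside −0.01 over all measured genes, and 1.92 at 3 h, beside −0.02. LOX4 at 1 h, with 3.30 (3.23 to 3.38), and AOC3 at 3 h, with 3.12 (3.07 to 3.17), had the largest of these ratios.

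Within dehydration the genes differed in their time course. From a comparison of 3 h with 1 h, AOC2 and JAR1 were at least 2-fold higher, 2 of 10, and 0 were lower, where 5.34% of all measured genes were higher and 1.48% lower. The log2 ratio was 1.54 (1.52 to 1.56) for AOC2 and 1.10 (1.08 to 1.13) for JAR1. Within 2-fold, LOX2, AOS, AOC1 and AOC3 had positive log2 ratios between 0.58 and 0.82. LOX3 at −0.57, LOX4 at −0.23, OPR3 at −0.46 and OPCL1 at −0.84 had negative ones. The highest column was thus dehydration 1 h for LOX3, LOX4, OPR3 and OPCL1, and dehydration 3 h for the other 6.

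Within ABA, AOC2 was the only one of the 10 at least 2-fold higher at 3 h than at 1 h, with a log2 ratio of 1.19 (1.16 to 1.21), and 0 were lower, where 4.92% of all measured genes were higher and 2.39% lower. With AOC1, AOC2 and AOC3 summed as 1 gene, none passed the limit. LOX3 followed at 0.88 (0.82 to 0.95). OPR3 at −0.56 and OPCL1 at −0.53 were the most negative. LOX3 and LOX4 had positive ratios between the times after ABA and negative ones after dehydration, whereas AOS, AOC3 and JAR1 had the opposite signs. These differences between treatments were not tested.

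**Figure D3:**
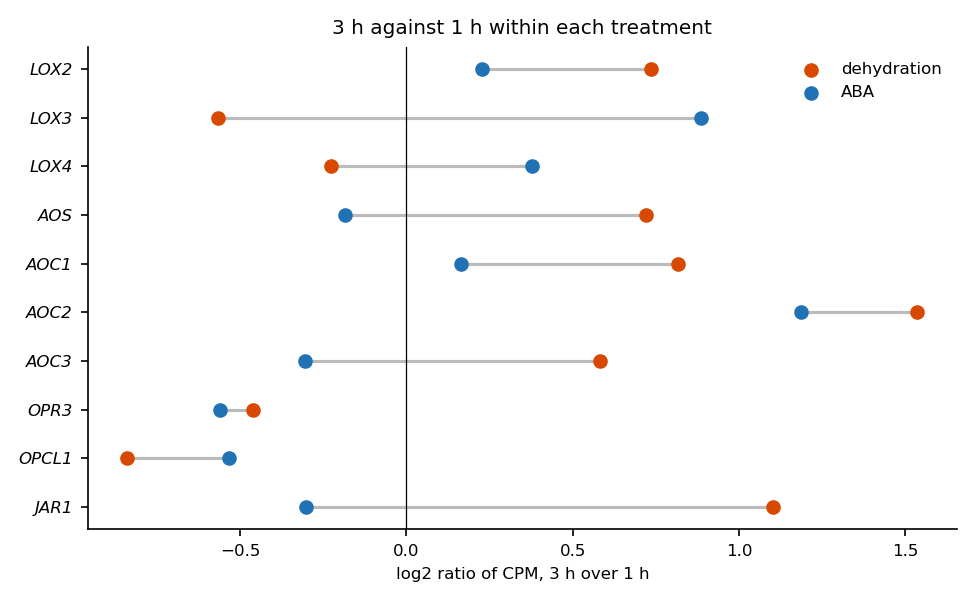
Log2 ratio of scaled CPM at 3 h over 1 h (horizontal axis) for the 10 genes, within dehydration (orange) and within ABA (blue), 1 value per treatment. After dehydration 6 genes lie right of 0 and 4 left of it, after ABA 5 lie on each side, and AOC2 lies furthest right in both.

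The order of the genes by FPKM, which is corrected for transcript length, differed between conditions, and without replicates no neighbours in an order can be tested. In the control LOX2 led at 126 FPKM, followed by AOS at 81.0 and AOC2 at 76.3, and LOX4 and LOX3 came last. At dehydration 1 h the first 4 genes, LOX2, OPR3, AOC2 and AOS, lay between 167 and 163 FPKM, so that their order carries little information. At dehydration 3 h AOC2 led at 488 FPKM, 1.68 times LOX2. LOX3 and LOX4 took the last places in every column although their ratios to the control were among the largest after dehydration.

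The make-up of each enzyme family differed between conditions. LOX2 made up 87.5% of the summed FPKM of LOX2, LOX3, LOX4 and LOX6 at 1 h of ABA, 86.3% at 3 h of ABA, 62.3% at 1 h of dehydration, 79.1% at 3 h of dehydration and 84.4% in the control. The share of LOX3 was 19.6% at 1 h of dehydration, against 2.38% in the control. LOX6, a plastid lipoxygenase linked to early wound signalling, stayed within 2-fold of the control in all treated columns.

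AOC2 gave 53.9% of the summed FPKM of the 4 cyclases at 1 h of ABA, 70.6% at 3 h of ABA, 39.6% at 1 h of dehydration, 54.8% at 3 h of dehydration and 45.7% in the control. AOC4, which lies apart from the cluster, stayed between 33.3 and 50.5 FPKM over all 5 columns. The summed cyclase level was 891 FPKM at 3 h of dehydration, against 167 FPKM in the control.

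OPR3 was the only reductase of its family with higher levels after dehydration. It made up 17.9% of the summed FPKM of OPR1, OPR2 and OPR3 at 1 h of ABA, 10.4% at 3 h of ABA, 44.2% at 1 h of dehydration, 40.1% at 3 h of dehydration and 5.89% in the control. OPR1 (AT1G76680), a relative of OPR3 with little activity on the OPDA isomer of this pathway, was at least 2-fold lower than the control in every treated column. Its log2 ratios were −1.36 at 1 h of ABA, −1.07 at 3 h of ABA, −1.08 at 1 h of dehydration and −1.33 at 3 h of dehydration. OPR2 stayed within 2-fold. The coding sequences of OPR1 and OPR2 are 91.6% identical, and 15 of 1412 read-length windows of OPR1 (1.06%) also occurred exactly in OPR2, so a small part of their reads could be shared.

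**Figure D4:**
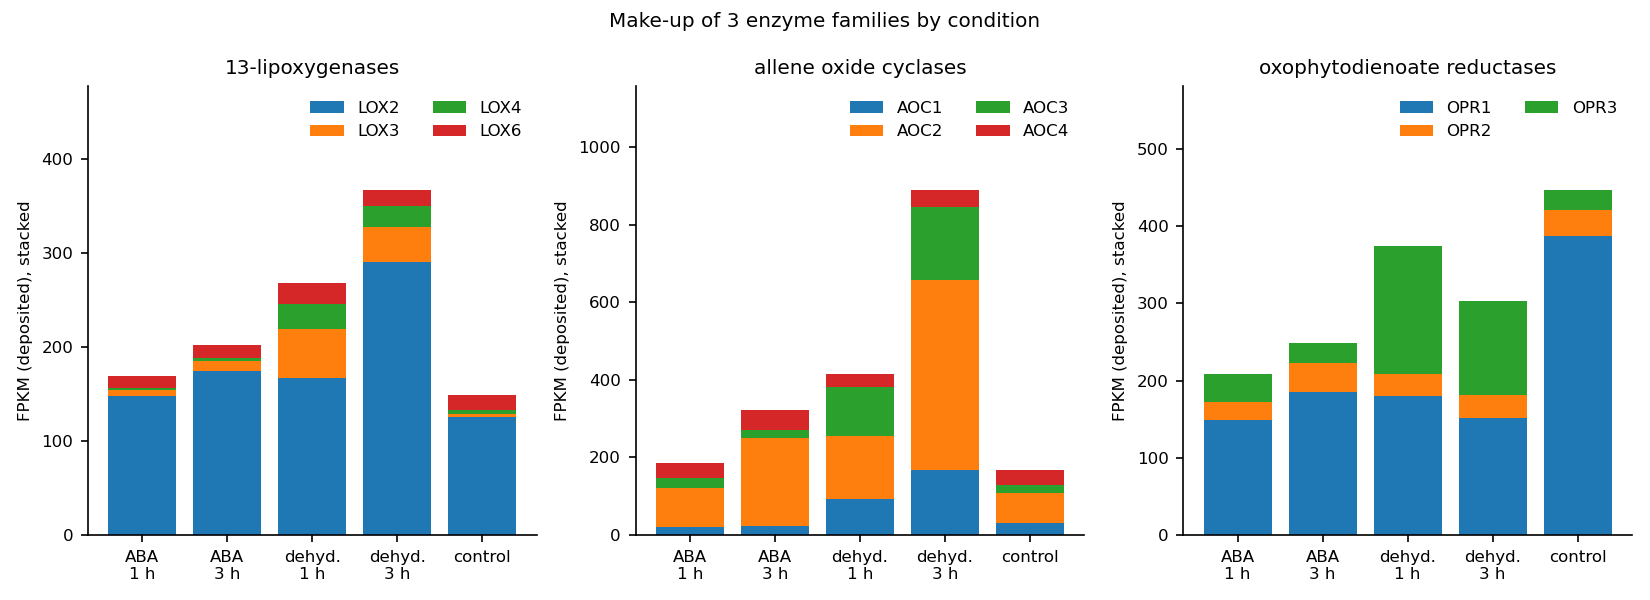
Deposited FPKM stacked by family member (vertical axis, linear from 0) in the 5 columns, for the lipoxygenases LOX2, LOX3, LOX4 and LOX6, the cyclases AOC1 to AOC4 and the reductases OPR1 to OPR3. The LOX3 and LOX4 segments are larger after dehydration. AOC2 makes up most of the cyclase bars at 3 h of either treatment and at 1 h of ABA. OPR1 is smaller than in the control in every treated column, while OPR3 is larger after dehydration.

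Genes before and beside the pathway are given next. Of all measured genes, 4.54% were at least 2-fold higher than the control at 1 h of ABA and 9.12% at 3 h. At 1 h of dehydration 7.73% were higher, and at 3 h of dehydration 10.5%. Lower were 5.13%, 7.79%, 5.62% and 6.49% in the same order. In lists this short, counts of 0 or 1 lie near such shares and cannot be called few. Among measured genes for substrate release and desaturation, 0 of 6 were at least 2-fold higher or lower in either ABA column or at 1 h of dehydration, and 1 was higher at 3 h of dehydration. That gene was DALL2, a lipase of the DAD1-like family and the only lipase of the 6, with a log2 ratio of 2.42. The listed genes PLIP1, PLIP2 and PLIP3 were left out because their names were not found, so these counts do not cover them. FAD2, a desaturase, reached 1.00 at 3 h of ABA, just under the limit, and passed it with RLE scaling or on the FPKM scales. The lipases DAD1 and DGL, too low to pass the filter, had no read in the control. DAD1 had 2 reads at 1 h of ABA, none at 3 h of ABA, 18 at 1 h of dehydration and 26 at 3 h of dehydration, which is at least 5.60-fold and 8.60-fold higher than the control in the dehydration columns if the control is set to 3 reads. DGL had none at 1 h of ABA, 3 at 3 h of ABA, 46 at 1 h of dehydration and 17 at 3 h of dehydration, at least 14.3-fold and 5.62-fold higher in the dehydration columns.

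Of 7 measured genes of other lipoxygenase and oxidase branches, HPL1 (AT4G15440), a gene of the hydroperoxide lyase branch, was the only one at least 2-fold higher in any comparison with the control. It had 1.18 FPKM at 1 h of ABA, 0.681 at 3 h of ABA, 4.21 at 1 h of dehydration, 8.07 at 3 h of dehydration and 0.880 in the control. Its log2 ratio was 2.29 at 1 h of dehydration and 3.21 at 3 h of dehydration. LOX1 and LOX5, lipoxygenases of the other positional type, stayed within 2-fold. JMT, which makes methyl jasmonate, did not pass the filter, with 28 reads at 1 h of ABA, 48 at 3 h of ABA, 58 at 1 h of dehydration, 173 at 3 h of dehydration and 57 in the control.

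Between OPCL1 and jasmonic acid lie peroxisomal import and beta-oxidation. Of 11 measured genes for import and beta-oxidation, 0 were at least 2-fold higher at 1 h of ABA, 3 at 3 h of ABA, 0 at 1 h of dehydration and 1 at 3 h of dehydration, and 0 were lower in any of the 4. Over all measured genes 4.54%, 9.12%, 7.73% and 10.5% were higher in the same order, and 5.13%, 7.79%, 5.62% and 6.49% lower. The 3 at 3 h of ABA were the acyl-CoA oxidases ACX1 at a log2 ratio of 1.53 and ACX2 at 1.41 and the thiolase KAT5 at 1.00. The interval of KAT5 there (0.94 to 1.07) spans the 2-fold limit. KAT5 was also the 1 at 3 h of dehydration, at 2.12, while ACX1 was at 0.69 and ACX2 at 0.07 there. These enzymes also serve general fatty acid breakdown.

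Turnover of jasmonates was represented by 7 measured genes. At least 2-fold higher were 1 at 1 h of ABA, 2 at 3 h of ABA, 4 at 1 h of dehydration and 5 at 3 h of dehydration, and 2 were lower at 1 h of ABA. Of all measured genes 4.54%, 9.12%, 7.73% and 10.5% were higher in the same order, and 5.13% were lower at 1 h of ABA. CYP94B3 (AT3G48520), which hydroxylates jasmonoyl-isoleucine, was at 9.58 FPKM at 1 h of ABA, 36.4 at 3 h of ABA, 24.5 at 1 h of dehydration, 29.4 at 3 h of dehydration and 1.37 in the control. It was high in all 4 treated columns, with log2 ratios between 2.82 (ABA 1 h) and 4.72 (ABA 3 h), and of 4.19 and 4.43 in the dehydration columns. Its relative CYP94B1 was at −0.52 at 1 h of ABA, 0.36 at 3 h of ABA, 2.52 at 1 h of dehydration and 3.19 at 3 h of dehydration, so these 2 hydroxylases differed after ABA. ST2A, a sulfotransferase of hydroxylated jasmonate, was at 1.29 at 3 h of ABA and 2.52 at 3 h of dehydration, and within 2-fold at 1 h of either treatment. Of the genes named after their values were seen, the hydroxylase CYP94C1 at −1.27 and the oxidase JRG21 at −1.07 were the 2 lower ones at 1 h of ABA, and both lay within 2-fold with 1 added to FPKM. CYP94C1 at 1.40 and the amidohydrolase ILL6 at 1.70 completed the 4 at 1 h of dehydration, and ILL6 at 1.83 and the amidohydrolase IAR3 at 1.24 the 5 at 3 h of dehydration.

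Regulators of synthesis differed among themselves. ORA47 (AT1G74930), a transcription factor known to activate jasmonate synthesis genes, had 0.336 FPKM at 1 h of ABA, 0.249 at 3 h of ABA, 3.60 at 1 h of dehydration, 21.7 at 3 h of dehydration and 5.34 in the control. Its log2 ratio was −3.98 at 1 h of ABA, −4.42 at 3 h of ABA, −0.53 at 1 h of dehydration and 2.04 at 3 h of dehydration. The ABA columns rest on 42 reads at 1 h and 36 at 3 h, against 703 in the control. ORA47 was therefore far below the control after ABA. At 3 h of ABA LOX3 and AOC2 were at least 2-fold above the control, and the rest of the 10 synthesis genes lay within 2-fold. A link between ORA47 and these genes was not tested. MYC2, the central transcription factor of the jasmonate response, had log2 ratios of 1.98 at 1 h of dehydration and 1.84 at 3 h of dehydration and of 0.49 at 1 h of ABA and 0.09 at 3 h of ABA. MYC4 reached −0.84 at 3 h of ABA. Of the 5 measured regulators, 1 was at least 2-fold lower at 1 h of ABA and at 3 h of ABA, 1 higher at 1 h of dehydration and 2 higher at 3 h of dehydration. Among all measured genes 5.13% and 7.79% were lower in these ABA columns, and 7.73% and 10.5% higher in these dehydration columns.

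Among 14 measured genes of the jasmonate response, 6 were at least 2-fold higher at 1 h of dehydration and 0 lower, and 9 were higher at 3 h of dehydration and 1 lower. At 1 h of ABA, 1 was higher and 4 were lower, and at 3 h of ABA, 3 were higher and 3 lower. Over all measured genes, 7.73% were higher and 5.62% lower at 1 h of dehydration, and 10.5% and 6.49% at 3 h. The shares at 1 h of ABA were 4.54% and 5.13%, and at 3 h of ABA 9.12% and 7.79%. The median log2 ratio of the 14 was −0.02 at 1 h of ABA, 0.17 at 3 h of ABA, 0.90 at 1 h of dehydration and 1.63 at 3 h of dehydration. JAZ10 (AT5G13220), a repressor, was at 5.61 FPKM at 1 h of ABA, 6.56 at 3 h of ABA, 51.9 at 1 h of dehydration, 67.8 at 3 h of dehydration and 4.53 in the control. JAZ5 had log2 ratios of 3.68 at 1 h of dehydration and 3.36 at 3 h of dehydration. JAZ1 was at least 2-fold higher in all 4 treated columns, with log2 ratios between 1.39 and 2.97. Named after their values were seen, the lower ones at 1 h of ABA were JAZ4, JAZ7, JAZ8 and JAZ9, between −2.46 and −1.57, or 1 gene with a mean of at least 5 CPM as the filter. At 3 h of ABA the lower ones were JAZ4, JAZ6 and JAZ9, and JAZ11 and VSP2 were higher beside JAZ1. JAZ4 was the lower one at 3 h of dehydration.

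VSP1 and VSP2, vegetative storage proteins long used as jasmonate markers, differed in their time course. VSP1 was level with the control at 1 h of ABA, and had log2 ratios of 0.29 at 3 h of ABA, 1.23 at 1 h of dehydration and 2.30 at 3 h of dehydration. VSP2 had 0.08 at 1 h of ABA, 1.26 at 3 h of ABA, 0.54 at 1 h of dehydration and 2.19 at 3 h of dehydration. The values of VSP2 had the same order over the treated columns as those of AOC2.

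Seedlings were moved onto paper for dehydration, so touch-induced genes are given beside these results. Of 4 measured touch genes, 0 were at least 2-fold higher than the control in any treated column. Among all measured genes 4.54% to 10.5% were higher, depending on the column. A response that had ended before 1 h would not be seen here, and the part of handling was not tested. Against ABA at the same time, TCH3 was higher after dehydration by 1.49 on the log2 scale at 1 h and 1.89 at 3 h, and TCH2 by 1.03 at 3 h (TCH2 named after its value was seen). Their summed level was 383 CPM at 1 h of ABA, 264 at 3 h of ABA, 802 at 1 h of dehydration, 617 at 3 h of dehydration and 687 in the control, and none was at 0. TCH4, a cell wall enzyme, was lower in each, at −2.07 at 1 h of ABA, −1.53 at 3 h of ABA, −1.96 at 1 h of dehydration and −1.02 at 3 h of dehydration. The calmodulin-related TCH3 was at −1.89 at 3 h of ABA and 0.78 at 1 h of dehydration, and the calmodulin gene CAM2 was at 0.97 at 1 h of dehydration.

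**Figure D5:**
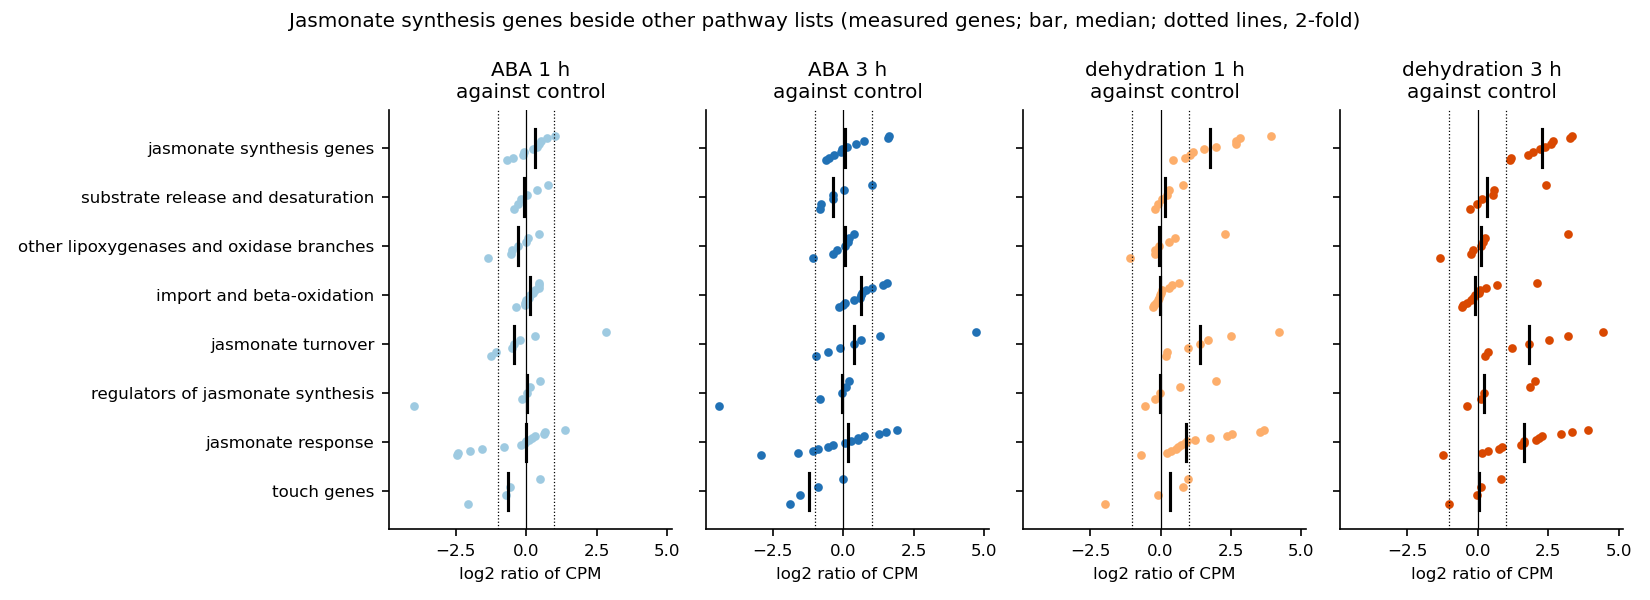
Log2 ratio of scaled CPM to the control (horizontal axis) for every measured gene of the jasmonate synthesis set and of 7 other lists (rows), 1 panel per treated column; each point is a gene, the black bar is the list median and dotted lines mark 2-fold. At 3 h of dehydration the medians of the synthesis set (2.30), turnover (1.83) and jasmonate response (1.63) lie right of the 2-fold line, and those of the other lists do not.

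At 1 h of dehydration only the synthesis set (1.77) and turnover (1.40) had medians past 2-fold, and after ABA at either time no list but the touch genes at 3 h (−1.21) did.

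The genes nearest in pattern were found by the root mean square difference of log2 CPM over the 5 columns, each gene centred on its mean, among 12946 genes with a mean of at least 10 CPM. With 5 columns such likeness is only a description. For LOX2 they were AT4G33440 (0.05), WRKY2 (0.05) and AT3G61580 (0.06). For LOX3 they were AT1G05675 (0.37), JAZ5 (0.41) and PRR5 (0.42), and for LOX4 AT1G05675 (0.21), RHA2B (0.27) and RHA2A (0.27). The difference grows with a gene's own range over the columns, so its size is not comparable between these genes.

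AOS lay nearest to WRKY46 (0.15), IQD23 (0.16) and AT2G39650 (0.18). OPR3 lay nearest to AT4G35985 (0.12), AT1G11960 (0.23) and MYB15 (0.25), and JAR1 to ERD3 (0.14), AT2G46170 (0.14) and BTI3 (0.14). Within the set the closest pairs were LOX2 with JAR1 (0.30) and OPR3 with OPCL1 (0.35), and the tandem neighbours AOC1 and AOC2 were further apart (0.88) than AOC1 and AOC3 (0.42).

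Upstream sequence is shown for the members that hold a G-box or its close variant, the letters that MYC2-type factors are known to bind, because the whole set stood above the control after dehydration. In the 500 bases before each annotated transcript start, searched on both strands, CACGTG occurred in 1 of 10 genes (AOS) and in 10.2% of 22431 genes, and AACGTG in 3 of 10 (LOX2, LOX4 and AOC1) and in 13.8% of genes. The motif is in capitals, and CACGTT is AACGTG read on the other strand:
LOX2: ataccattttatCACGTTatagccatgttc
LOX4: tccaattaaaaaAACGTGtggacggcgaaa
AOS: aaatgaaggaaaaaagagtcaaagCACGTG
AOC1: cttcacaagtcgCACGTTtttcatttttct

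The motif lay 328 bases before the start in LOX2, 89 in LOX4 and 133 in AOC1, and ended at the base before the start in AOS. ACGTGNC, the core letters of ABA-responsive elements, which can overlap the other motifs, occurred in 1 of 10 genes (LOX3) and in 13.4% of genes. CCGAC, the core of dehydration-responsive elements, occurred in 2 of 10 (AOS and AOC3) and in 22.4% of genes. These counts describe letters only, and 5 of the 10 genes held neither CACGTG nor AACGTG nor ACGTGNC. The share of all genes without any of these motifs was not counted, so 5 of 10 cannot be called many or few.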

How the data were processed

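The authors deposited 2 tables, raw read counts and FPKM values, and per the file headers each has a single column for a condition. TopHat2 2.0.8, Cufflinks 2.1.1, Cuffdiff, DESeq2 and the build TAIR10 are named in the submitters' processing notes. Their roles, the counter, its strand setting and the way replicates were combined are steps not given in the sources used here. In 1 cell, of a gene not described here, the count was 0 although the FPKM was above 1, and it was set missing.

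Counts were scaled to CPM by edgeR 4.0.16 (R 4.3.3), with TMM factors computed on 22186 rows. Ratios used counts of at least 3, with lower ones set to 3 and no ratio where both were at or below 3. Intervals are exact (Clopper-Pearson, SciPy 1.17.1) at 95%. Genes with a mean of at least 1 CPM, 18876 in number, are called measured. For all 10 genes the FPKM given to 1 read differed from that in the control column by at most 0.04 log2, apart from the scaling of a column. The ratio and interval steps were run on simulated counts that held counting error only. That run checks the calculation and cannot show how replicates vary. The tests planned for replicate columns (edgeR's quasi-likelihood test, DESeq2, a replicate block, leaving out replicates) need a value per replicate and were not run.

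The members and lists were chosen with earlier results of these data known. Of 93 list loci, 7 were left out because their name was in neither the tables nor the annotation, and 2 had no row. The 7 were PLIP1, PLIP2, PLIP3, JASSY, JOX1, JOX2 and JOX4, and the counts of their lists do not cover them. All 10 genes are named in every column. Of each of the 7 other pathway lists, the 3 members with the largest absolute log2 ratio to the control are named, with AOC4, LOX6, LOX1, LOX5, OPR1, OPR2, HPL1, JMT, ORA47, CYP94B3, JAZ10, VSP1 and VSP2. Nearest genes, 3 each, are named for LOX2, LOX3, LOX4, AOS, OPR3 and JAR1. Families were aligned with MAFFT 7.526. Sequences come from TAIR10.1, which is not the authors' release, so no coordinates are given. As alternatives, scaling was by RLE, by upper quartile or by total counts. Ratios of FPKM with 1 or 0.1 added, limits of 1.5-fold and 3-fold, AOC1, AOC2 and AOC3 summed, no filter and a mean of at least 5 CPM were also tried.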

Additional observations from a re-analysis of the deposited data

Results flagged for a closer look

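For AOC1 at 1 h the log2 ratio to the control was 1.56 after dehydration and −0.67 after ABA, a difference of 2.23 with the 2 treatments on opposite sides of the control by more than 1.5-fold each. For OPCL1 at 3 h it was 1.15 after dehydration and −0.62 after ABA, a difference of 1.76, again on opposite sides by more than 1.5-fold. Neither difference was tested, since each condition is 1 combined column, and both treatments are set against the same control.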

How the results depend on the processing

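No paired analysis was possible because the tables hold 1 combined column per condition, which also kept leaving out replicates and DESeq2 from being run. No count of the 10 genes changed under RLE, upper-quartile or total-count scaling or with 0.1 added to FPKM, and no log2 ratio of a gene moved by more than 0.12 under these. Total-count scaling gave all measured genes a median of 0.11 for dehydration 1 h against control and −0.12 for dehydration 3 h against 1 h. With 1 added to FPKM the largest move of a gene was 0.43, and the count of higher genes was 0 in place of 1 at 1 h of ABA and 7 in place of 8 at 1 h of dehydration. At a 1.5-fold limit the higher genes were 2 at 1 h of ABA, 2 for ABA 3 h against 1 h and 5 for dehydration 3 h against 1 h, and the lower ones were 1 at 1 h of ABA, 1 at 3 h of ABA and 1 for dehydration 3 h against 1 h. At a 3-fold limit the higher genes were 0 at 1 h of ABA, 1 at 3 h of ABA, 5 at 1 h of dehydration, 0 for ABA 3 h against 1 h and 0 for dehydration 3 h against 1 h. For these 2 limits, only counts that changed by more than 1.5 times or to or from 0 are given. Smaller falls at 3-fold came at 3 h of dehydration, where LOX2 (2.29-fold) and OPCL1 (2.21-fold) dropped out. Against ABA at the same time, AOS (2.27-fold) dropped out at 1 h, and AOC2 (2.14-fold) and JAR1 (2.37-fold) at 3 h. With AOC1, AOC2 and AOC3 summed, the count for ABA 3 h against 1 h was 0. Over the 8 comparisons, 4.54% to 10.5% of measured genes were at least 2-fold higher and 1.48% to 7.79% lower. These ranges were 10.4% to 17.9% and 6.80% to 15.8% at 1.5-fold, 1.94% to 5.90% and 0.260% to 3.31% at 3-fold, 2.94% to 8.41% and 0.668% to 5.76% with 1 added to FPKM, 5.87% to 13.7% and 2.31% to 10.08% with no filter, and 3.87% to 9.27% and 1.17% to 5.91% with a mean of at least 5 CPM. Counts of the other lists changed 56 times without a change of limit, by at most 3 genes, and 42 of these changes were of more than 1.5 times or were to or from 0. With a mean of at least 5 CPM, HPL1 and ORA47 were no longer counted, and the jasmonate response genes lower at 1 h of ABA were 1 in place of 4. Depth limits DAD1, DGL and JMT, and the missing replicate spread limits every value.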
